A study of Drosophila melanogaster with 6 samples.

Results

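The wild type arrays of an eye disc microarray experiment are described here by themselves. They are the 3 arrays whose sample records give the genotype *w1118*, of the 6 arrays in the series. The *w1118* line is a common laboratory strain that carries a *white* mutation, which removes adult eye pigment, and is otherwise used as wild type. The RNA was total RNA from eye discs of wandering larvae, the stage at the end of larval life, and the arrays are labelled biological replicates without saying how many discs or which crosses each RNA came from. The other 3 arrays hold the *mir-998* mutant (*mir-998* exc222 homozygotes), and they enter below only through their own spread. No test was possible within 1 genotype, so the text gives values on each array, the mean, the SD over the arrays and the range, and levels are not contrasted between the genotypes.

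The eye disc is an epithelial sheet set aside in the embryo that grows through larval life and becomes the compound eye. During the last larval stage a furrow sweeps across it from the posterior edge. Cells ahead of the furrow divide without pattern, and cells behind it are recruited one after another into clusters of photoreceptors through the proneural gene *atonal* and then EGFR signaling. A dissected disc carries with it the antennal disc, glia that enter along the optic stalk, and other cells that touch it, such as blood cells. Salivary gland, fat body, gut and the ring gland, which makes ecdysone and juvenile hormone, lie near it in the larva.

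The table held 18952 probe sets. Of these, 183 were Affymetrix controls, and 18769 were read. A gene was taken from its brightest probe set by the mean, which gave 11982 genes. All values are log2 signals from the rma algorithm, which was run on all 6 arrays together and gives every array nearly the same spread of values. The median over all probe sets was 5.30, 5.28 and 5.30 on replicates 1, 2 and 3. Over the 11982 genes read it was 7.32, 7.27 and 7.15. Signal also depends on how well the probes of a probe set bind, so the order of genes below is an order of signal and not of transcript number, and no ratio between genes is given. In a dissected tissue fewer cells of a type and less RNA per cell cannot be told apart. Across genes the 3 arrays correlated at 0.988 to 0.993 (Pearson, over 11982 genes, which share the arrays and are not independent replicates). The median difference between a pair of arrays was 0.14 for replicates 1 and 2, 0.18 for replicates 1 and 3, and 0.16 for replicates 2 and 3. A difference of at least 1 was found for 141, 349 and 238 genes in the same pairs, so replicates 1 and 3 stood farthest apart.

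Gene signals fell into a low and a high group with a shallow valley between them. A total of 3293 genes (27.5%) had a mean between 4 and 5, only 694 (5.79%) lay between 6 and 7, and 1689 (14.1%) lay between 9 and 10. The quartiles of the gene means were 4.53, 7.26 and 9.45, and the highest mean was 14.12. The deposited values have no detection call, so the background was read from the 3 *trp* control probe sets, which match a bacterial gene and ranged from 3.50 to 3.83 on the wild type arrays. By this bound 212 genes (1.77%) were near background, with all 3 arrays at or below 3.83. Another 11409 (95.2%) were above it on all 3 arrays, and 361 (3.01%) were undecided. At the edge of the bound, the highest array value was 3.83 for *t-cup* and 3.84 for *Adgf-A2*, which is outside. This bound is lower than the signal of genes that larval eye discs are not known to use. The odorant and gustatory receptors, which act in sensory neurons, gave a 95th percentile of 5.005 over their 113 genes. By this second bound 3886 genes (32.4%) were at or below it on all 3 arrays and 7583 (63.3%) were over it on all 3, and it is called the receptor bound below. A bound at the first quartile of each array, from 4.26 to 4.32, lay between them, with 1688 genes (14.1%) at or below it and 9523 (79.5%) over it on all 3 arrays.

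**Figure D1:**
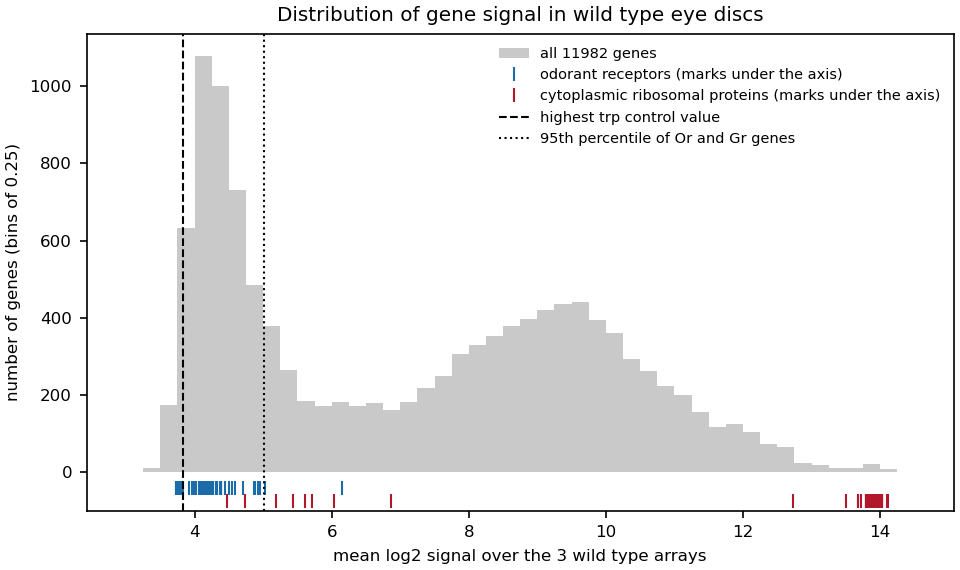
The number of genes (y axis, bins of 0.25) at each mean log2 signal over the 3 wild type arrays (x axis). The dashed line is the highest *trp* control value (3.83) and the dotted line the receptor bound (5.005). Blue marks are the 57 odorant receptors, which lie in the low group, and red marks the 39 cytoplasmic ribosomal protein genes, of which 31 lie at the far right.

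The brightest genes of the wild type eye disc were those of the cytoplasmic ribosome. Of the 25 highest means 23 were ribosomal protein genes, and of the 120 highest means, which are 1% of the genes read, 31 (25.8%) were. The share was 11.7% once probe sets that can share probes between transcripts or genes were left out. The first was *RpL41*, with 14.12, 14.13 and 14.10 on replicates 1, 2 and 3. It encodes the smallest protein of the large subunit. *RpLP1*, a protein of the stalk that binds elongation factors, gave 14.09, 14.11 and 14.11. *RpL37A* and *RpS21* followed with means of 14.03 each, then *RpL15* (14.03), *RpS26* (14.03), *RpS29* (14.02), *RpS15* (14.01) and *RpS28b* (14.00). These genes are packed at the top of the scale, where the arrays were brought to the same values, and the 9 genes with a mean of 14 or more had a median SD of 0.02. *RpL41* and *RpLP1* were over *RpS28b* (14.00, 14.02 and 13.99) on every array. The ranges of the genes from *RpL37A* to *RpS28b* met or overlapped, so their order is within their spread. The other ribosomal genes among the 25 brightest were *RpL23*, *RpS27A*, *RpL32*, *RpL10Ab*, *RpLP0*, *RpL36A*, *RpS7*, *RpL37-1*, *RpS18*, *RpS20*, *RpL3*, *RpL39*, *RpLP2* and *RpS30*, all with means from 13.82 to 13.97. No ribosomal protein gene had an SD of 0.5 or more, where 4.72% of all genes did. The median SD of the 39 was 0.04, against 0.14 over all genes.

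Only 2 of the 25 brightest genes were not ribosomal. *Hsc70-4*, the main cytosolic chaperone of the Hsp70 family, gave 13.88, 13.94 and 13.98. The long noncoding RNA *lncRNA:CR33938* gave 13.96, 14.03 and 13.93. Below them stood genes of several functions, of which a few are named here after their values were seen. *Cyp1*, a cyclophilin that folds proteins, had a mean of 13.81 ± 0.10 (SD, n = 3). *tsr*, the fly cofilin, which cuts actin filaments, had 13.77 ± 0.05, and *betaTub56D*, the general beta-tubulin, had 13.73 ± 0.06. *Ance*, a secreted peptidase related to angiotensin-converting enzyme, had 13.77 ± 0.09. *Sumo*, a small protein that is linked to other proteins, had 13.62 ± 0.10. *Moe*, which ties actin to the cell membrane, had 13.23 ± 0.08. The unnamed gene *CG5953* stood among them at 13.70 ± 0.08. Of the 120 brightest genes 14 had only a CG number for a name, or 11.7%, against 43.5% of all genes. The last of the 120 was the splicing factor gene *B52* at 12.67, and the next was *eIF3b* at 12.67. Of the 120 genes, 90 were among the 120 highest on each array by itself.

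The gene lists of basic cell machinery were bright as groups. The median signal was 11.98 for 40 proteasome genes, 11.98 for 23 chaperone genes, 11.43 for 46 translation factors, 11.14 for 14 splicing factors, 11.05 for 74 genes of oxidative phosphorylation and 9.73 for 69 mitochondrial ribosomal proteins. The median over all genes was 7.26. *eEF5*, which helps the ribosome past runs of proline, gave 13.69, 13.63 and 13.50. *eIF4A*, the helicase of cap-dependent initiation, gave 13.53, 13.60 and 13.54. The brightest proteasome gene was *Prosbeta3* with 12.99, 12.75 and 12.84, and the brightest of oxidative phosphorylation was *ND-MLRQ* with 13.17, 13.02 and 13.17. All 69 mitochondrial ribosomal protein genes lay over the receptor bound, as 63.3% of all genes did. Their means were between 8.83 and 10.72, and none was near the top. DNA replication genes (median 9.52, 15 of 15 over the receptor bound) and mitotic genes (10.39, 11 of 11) had a middle to high signal. *PCNA*, the sliding clamp of DNA polymerase, gave 11.86, 11.58 and 11.54, and *CycB*, a mitotic cyclin, gave 11.16, 11.30 and 11.02.

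In the same families the paralogs, several of them best known from the germ line, lay at the low end, and there was an empty interval between the 2 kinds. Of the 39 cytoplasmic ribosomal protein genes read, 31 lay between 12.74 (*RpL34a*) and 14.12, and the other 8 lay between 4.48 (*RpS10a*) and 6.87 (*RpS5b*). Of the 40 proteasome genes 26 lay between 11.55 (*Rpn1*) and 12.86, and 14 lay between 3.96 (*Prosalpha3T*) and 7.76 (*Rpt3R*). The translation factors split in the same way, with 37 genes from 8.95 (*eIF2D*) upwards and 9 genes from 5.03 (*eIF4E6*) downwards. The pairs make the difference concrete. The housekeeping chaperonin gene *Hsp60A* gave 12.15, 12.04 and 12.13, while *Hsp60B*, *Hsp60C* and *Hsp60D* had means of 5.01, 3.99 and 4.04. *betaTub56D* was at 13.73, while *betaTub85D*, the beta-tubulin of the testis, gave 3.95, 3.97 and 4.12. *alphaTub67C*, known as a maternal alpha-tubulin, gave 4.53, 4.34 and 4.16. A list of 39 such paralogs was put together after values of these families had been seen. Its median was 4.44, and 1 gene lay above the median of all genes. Over the receptor bound on all arrays were 9 (23.1%, against 63.3% of all genes). A probe set of a paralog can also have dimmer probes, and this was not tested.

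Oxidative phosphorylation genes had the same shape, with a caution about names. There were 53 genes between 9.74 (*ND-13B*) and 13.12, and 21 genes between 3.69 (*COX5BL*) and 7.61 (*ATPsynepsilonL*). Most of the 21 have a symbol that ends in L for "like". Of 3 that do not, 1 is *ND-B8*, a subunit of complex I, with 3.85, 3.79 and 3.78, at the background. The others are *ND-B12* with 6.61, 6.61 and 6.92 and *UQCR-11* with 5.63, 6.25 and 5.72. Nothing else in the values shows whether these 3 low signals belong to the transcripts or to their probe sets.

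**Figure D2:**
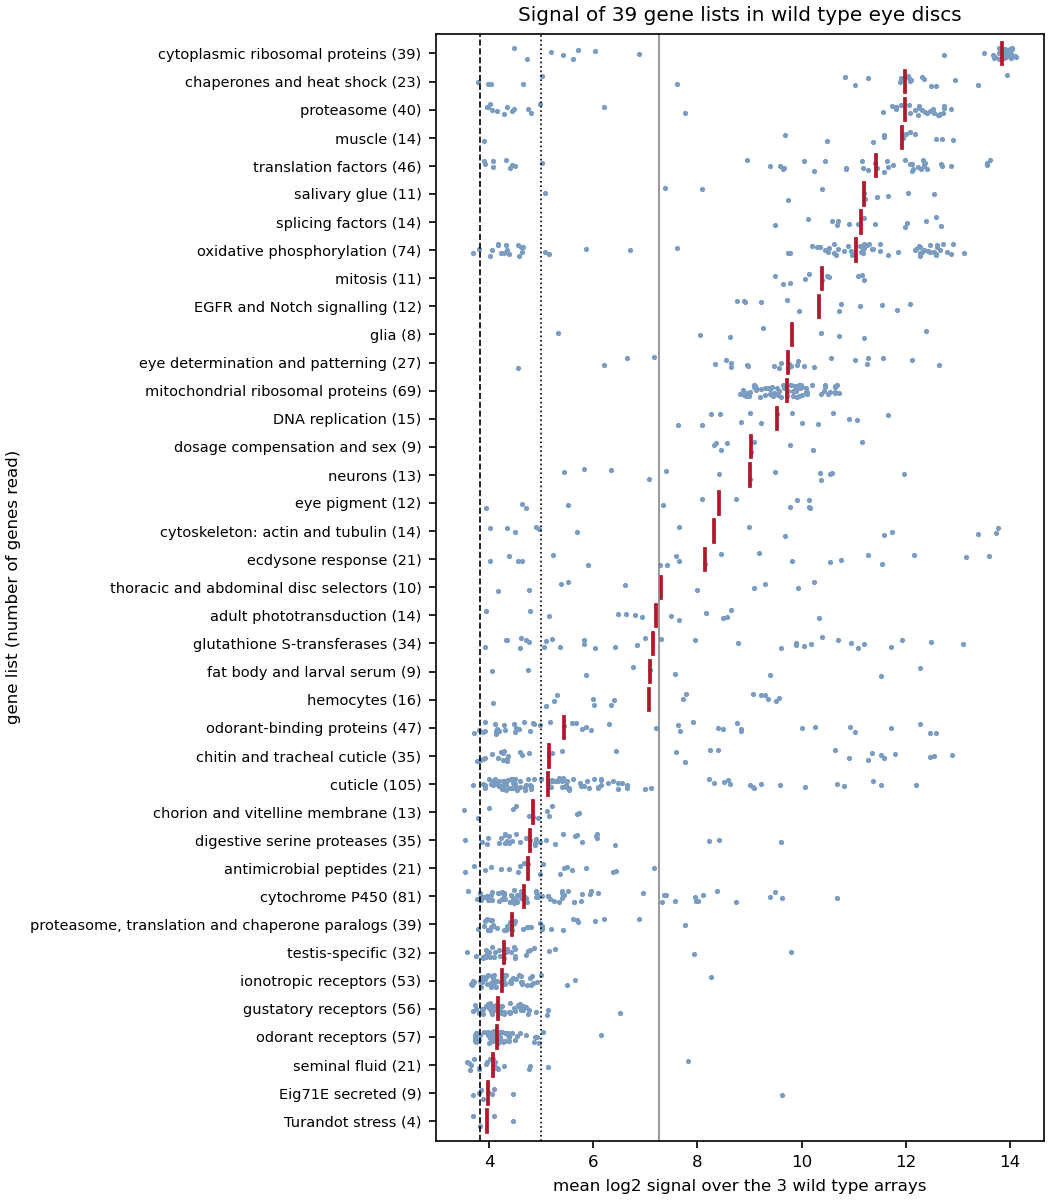
Mean log2 signal over the 3 wild type arrays (x axis) of each gene (blue point) in 39 gene lists (y axis, number of genes read), ordered by the list's median (red bar). The dashed line is the *trp* bound, the dotted line the receptor bound and the grey line the median of all genes (7.26). Machinery lists lie on the right with a separate cloud of low paralogs, and receptor, seminal fluid, testis and Turandot genes lie on the left.

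The labelled tissue was checked against its markers. Of the 17 eye-antennal markers 15 were read, and all 15 were over the receptor bound on all 3 arrays, from 7.17 (*ro*) to 12.11 (*toy*). In the longer list of eye determination and patterning genes 26 of 27 were over that bound (96.3%, against 63.3% of all genes), 23 were above the median of all genes, and the median was 9.74. *emc*, which holds back proneural proteins, was the brightest with 12.55, 12.66 and 12.70. *toy*, a Pax6 gene at the head of eye determination, gave 11.92, 12.31 and 12.10. *da*, the partner of the proneural proteins, gave 11.41, 11.57 and 11.71.

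The other genes of eye determination were high too. *eya*, a phosphatase and cofactor, gave 11.31, 11.61 and 10.88, and its DNA-binding partner *so* gave 9.99, 10.09 and 8.76. *dac* gave 10.87, 11.43 and 10.80, and *ey*, the second Pax6 gene, gave 8.91, 9.44 and 8.48. *Optix* was even across the arrays with 9.98, 10.12 and 10.06, while *eya*, *so*, *dac* and *ey* were lowest on replicate 3. Genes of the furrow and of the first photoreceptors were present: *dpp* had a mean of 9.92, *hh* of 9.74 and *ato* of 9.79. *gl* gave 10.84, 11.07 and 9.80. *sv*, the Pax2 gene of cone and pigment cells, was the single gene of the list under the bound, with 4.46, 4.84 and 4.39. Another of the dimmest was *rn* with 6.50, 6.30 and 5.84.

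EGFR and Notch genes were all over the receptor bound (12 of 12, against 63.3% of all genes), with a median of 10.33. *spi*, the main EGFR ligand, gave 11.97, 12.29 and 11.97. *aop*, the ETS repressor of the pathway, gave 11.40, 11.72 and 11.52, and *sty*, a feedback inhibitor, gave 10.27, 10.97 and 11.01. *Egfr* itself gave 9.78, 10.20 and 9.88. *fng*, which modifies Notch, gave 11.62, 11.92 and 11.98. *Cbl*, which sends the active receptor to degradation, was the dimmest with 8.74, 8.89 and 8.67. The spread of most of these was under 0.5, with *aos* (9.05, 9.39 and 8.32), a secreted EGFR inhibitor, as the exception.

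Photoreceptor genes of the adult were uneven. *Arr1*, an arrestin that ends the light response, was bright with 10.00, 10.16 and 10.86, and *Galphaq*, the G protein that couples rhodopsin to its effector, gave 8.58, 8.88 and 8.50. The channel gene *trpl* gave 7.55, 8.12 and 8.83. Its partner *trp*, a fly gene unlike the bacterial control of the same name, gave 3.91, 3.87 and 4.03, and *inaD*, the scaffold that holds the complex, gave 4.72, 4.76 and 4.90. Of 14 such genes 12 (85.7%) were over the receptor bound, against 63.3% of all genes, and 3 of the 10 adult photoreceptor markers were read. Among the pigment genes those of vesicle sorting were bright, such as *lt* (10.14, 10.30 and 10.06) and *or* (10.01, 9.75 and 9.96). The enzyme gene *cn* (3.93, 3.88 and 4.01) and the transporter gene *bw* (4.58, 4.37 and 4.96) were low.

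Neuronal and glial genes were present. *elav*, found in all neurons, gave 10.25, 10.83 and 10.54, and *Nrg*, an adhesion protein, gave 11.60, 12.16 and 12.11. Genes of the mature synapse were dimmer. *nSyb*, of the vesicle membrane, gave 6.84, 6.18 and 5.99, and *cpx*, which binds the fusion complex, gave 5.50, 5.78 and 5.06. The glial selector *repo* gave 8.43, 8.70 and 8.76, and *Gli*, an adhesion protein also made by epithelia, was the brightest of its list with 12.23, 12.41 and 12.52. *gcm*, which starts the glial fate, was low with 5.05, 5.38 and 5.54.

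The selector genes of other body regions were uneven, with 5 of the 10 at 7.99 (*Scr*) or more and 5 at 6.62 (*nub*) or less. *Dll*, a gene of antenna and legs, gave 10.07, 10.41 and 10.22, and *ems*, a head gap gene, gave 9.67, 10.05 and 10.10. The head Hox gene *Dfd* gave 9.22, 9.19 and 9.47. The thoracic Hox gene *Antp* was the dimmest of the 10 with 4.18, 4.02 and 4.33, next to *pb*, a Hox gene of the mouthparts, with 4.90, 4.6 and 4.83. The wing genes *vg* (5.24, 5.43 and 5.88) and *nub* (6.52, 6.60 and 6.73) lay in the valley of the distribution. Both were over the receptor bound and under the median of all genes.

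Genes of cells that are not disc epithelium were also read, some of them at a very high level. Of the 14 muscle genes 13 were over the receptor bound, as 63.3% of all genes were, and the median was 11.93. *Mp20*, an actin-binding muscle protein, gave 12.91, 12.73 and 13.09, and *Mlc1*, a myosin light chain, gave 12.68, 12.73 and 12.70, and both were among the 120 brightest genes. The salivary glue list had a median of 11.21 over 11 genes. Hemocyte genes were lower, with a median of 7.06 over 16 genes: the collagen genes *Col4a1* (9.54, 9.22 and 9.78) and *vkg* (9.50, 9.15 and 9.42), also made by fat body, were near the top, and *gcm2* (4.23, 4.10 and 3.89) was at the bottom. The brightest there, *lz* (9.33, 9.86 and 9.49), is also an eye gene. Of the 4 testis markers *aly*, *can* and *sa* were under the receptor bound, at 4.11, 3.93 and 3.95, and *bam*, a gene of germ cell differentiation, was just over it with 5.04, 5.33 and 5.44. How many cells of any of these types were in the samples was not measured.

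Whole families of chemosensory genes lay in the low group. Of 57 odorant receptors 53 were at or below the receptor bound on all arrays and 1 was over it, and of 56 gustatory receptors 52 were below and 3 over, but these families set the bound. The ionotropic receptors did not, and 48 of 53 were below it, against 32.4% of all genes, with a median of 4.26. The exceptions stood alone. *Or43b* gave 5.98, 6.29 and 6.16, where the next odorant receptor had a mean of 5.03 (*Or43a*). *Gr61a*, a sugar receptor, gave 6.46, 6.75 and 6.34, where the next was at 5.14 (*Gr22a*). *Ir76a* gave 8.21, 8.52 and 8.05, over the median of all genes, where the next was at 5.66 (*Ir10a*).

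Most genes of reproduction, the Turandot genes and most antimicrobial peptide genes were low as well. All but 1 of the 21 seminal fluid genes lay at 5.14 or less. The exception was *Acp95EF*, with 7.48, 7.81 and 8.14. Of 32 testis genes 30 lay at 5.27 or less, and *Mst85C* (9.87, 9.82 and 9.69) and *mia* (8.10, 7.94 and 7.76) stood apart. All 13 chorion and vitelline membrane genes were at 5.73 or less, and the 4 Turandot stress genes were at 4.46 or less. The antimicrobial peptides had a median of 4.76, none was above the median of all genes, and *Drsl4* was the brightest with 6.95, 7.16 and 7.37.

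Families of metabolism and cuticle were mixed. Of 81 cytochrome P450 genes 26 (32.1%) were over the receptor bound, and the brightest was *Cyp4p2* with 10.32, 10.92 and 10.82. *Cyp4p1* (9.34, 9.64 and 9.89), *Cyp4e2* (9.77, 9.33 and 9.39) and *Cyp9c1* (9.24, 9.70 and 9.25) came next. Of 34 glutathione S-transferases 24 (70.6%) were over it, close to the 63.3% of all genes, and *GstD1* gave 13.19, 13.00 and 13.08. Of 105 cuticle protein genes 50 (47.6%) were over it. The brightest were *Cpr49Ac* (11.98, 11.64 and 12.96) and *Cpr12A* (11.77, 10.91 and 11.91). *Gasp*, a chitin-binding protein known from the lining of the tracheae, gave 13.01, 12.97 and 12.69.

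Hormone response genes included some of the highest signals. *ImpE2*, named as an ecdysone-inducible gene of imaginal discs, gave 13.53, 13.47 and 13.77. *br*, the Broad gene that marks the approach of metamorphosis, gave 12.86, 13.28 and 13.34. The ecdysone receptor *EcR* gave 9.66, 9.95 and 9.85, and its partner *usp* gave 9.26, 9.24 and 9.07. *Eip93F* was low with 4.25, 4.79 and 4.61, and so was the nuclear receptor gene *Hr38* with 4.40, 4.34 and 4.39.

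By chromosome the signal was even except for the smallest arms. The median of the X was 7.70, and those of the 4 large autosomal arms were 6.82 (2L), 7.34 (2R), 7.25 (3L) and 7.22 (3R). The 65 genes of chromosome 4 had a median of 8.94, and 54 of them (83.1%) were over the receptor bound, against 63.3% of all genes. The 4 genes of the Y that were read, *ORY*, *Ppr-Y*, *kl-2* and *Pp1-Y2*, were all low, with means from 3.48 to 4.67. Of 77 long noncoding RNAs 17 (22.1%) were over the bound, and their median was 4.12.

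The spread between the 3 arrays was small for most genes and large for a few. The median SD was 0.14, with quartiles of 0.08 and 0.23. An SD over 3 arrays has only 2 degrees of freedom, so single SDs are imprecise. It was 0.08 in the median for genes with a mean between 3 and 4, 0.26 between 6 and 7, and 0.08 again between 13 and 14. An SD of at least 0.5 was found in 565 genes (4.72%), and an SD of at least 1 in 71 (0.593%). At the edge of the second threshold, *CG8501* had 1.0002 and *futsch* had 0.99. On the 3 mutant arrays, which did not choose these genes, 120 genes (1%) reached an SD of 0.5 and 31 (0.259%) an SD of 1.

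**Figure D3:**
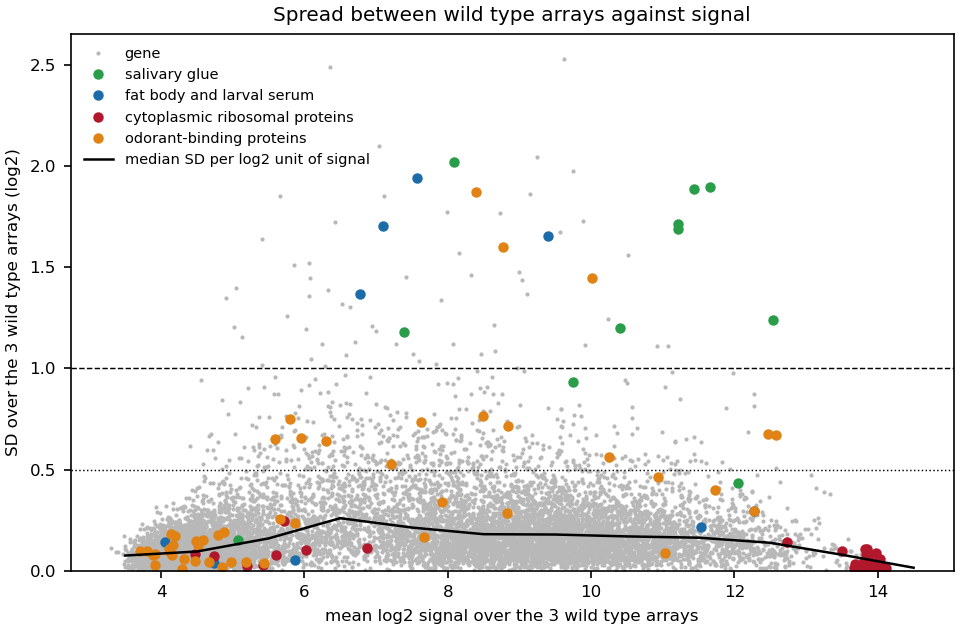
SD over the 3 wild type arrays (y axis, log2) against the mean signal (x axis, log2) for 11982 genes (grey), with 4 gene lists in colour. The black line joins the median SD of each log2 unit of signal, which is highest at 0.26 between 6 and 7. Dashed and dotted lines mark SDs of 1 and 0.5. Glue, fat body and some odorant-binding protein genes lie far above the line, and ribosomal protein genes lie at the bottom right.

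The most even genes were spread over cell functions. Among genes above the median signal *flw*, a catalytic subunit of protein phosphatase 1, gave 11 on all 3 arrays. Another 10 genes varied by 0.01: *RpL36A*, *fabp*, a fatty acid binding protein (13.28, 13.27 and 13.27), *Sod2*, the mitochondrial superoxide dismutase (11.48, 11.48 and 11.47), *Stt3A*, of the enzyme that attaches sugars to new proteins (11.95, 11.94 and 11.95), *Su(var)2-10*, a SUMO ligase (8.37, 8.38 and 8.37), *CG12170*, *CG13630*, *CG2246*, *CG31523* and *CG33228*. *Icmt*, *CG1620*, *CG4210* and *CG4789* varied by 0.02. On the mutant arrays the SD of these 15 genes ranged from 0.02 to 0.17.

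For each gene one array is farthest from the other 2, and the 71 genes with an SD of at least 1 were sorted by that array. Replicate 2 was the high one for 22 genes (0.184% of all genes read), replicate 3 the low one for 16 (0.134%), and replicate 1 the low one for 13 (0.108%). Replicate 3 was the high one for 10 (0.0835%), replicate 1 the high one for 8 (0.0668%), and replicate 2 the low one for 2 (0.0167%). Of the 71 genes 29 (40.8%) had only a CG number, close to the 43.5% of all genes, and 27 were in 1 of the gene lists. Different kinds of genes made up the groups.

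**Figure D4:**
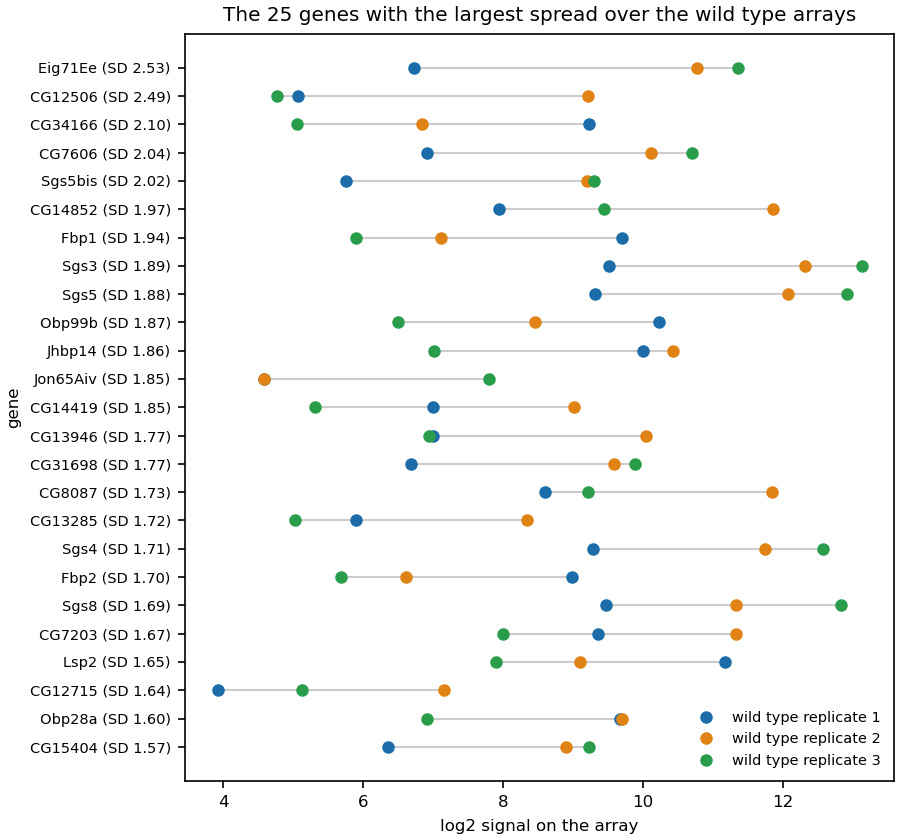
Log2 signal (x axis) on wild type replicates 1 (blue), 2 (orange) and 3 (green) for the 25 genes with the largest SD (y axis, SD in parentheses). Glue genes and *Eig71Ee* were low on replicate 1, *Fbp1*, *Fbp2* and *Lsp2* were high on replicate 1, and *CG12506*, *CG13946*, *CG14852* and *CG8087* were high on replicate 2.

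The glue proteins of the salivary gland, which fix the pupa to its support, were the most variable list, with a median SD of 1.24. Of 11 genes 8 had an SD of at least 1, which 0.593% of all genes had. An SD of at least 0.5 was found in 9 (81.8%, against 4.72% of all genes). *Sgs3* gave 9.52, 12.32 and 13.13, *Sgs5* gave 9.32, 12.08 and 12.92, and *Sgs4* gave 9.29, 11.75 and 12.58. *Sgs8* gave 9.47, 11.34 and 12.84, *Sgs7* gave 11.19, 12.80 and 13.62, and *Sgs5bis* gave 5.76, 9.20 and 9.31. In these 6 genes replicate 1 was lowest and replicate 3 highest. *Sgs1* (6.24, 8.60 and 7.32) and *ng2* (9.34, 11.70 and 10.16) were also lowest on replicate 1 but highest on replicate 2. The other new-glue genes did not follow, since *ng1* gave 10.38, 10.18 and 8.67, *ng3* gave 11.94, 12.52 and 11.67, and *ng4* gave 5.06, 5.23 and 4.93.

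The gene with the largest SD of all, *Eig71Ee*, had the shape of the glue genes, with 6.73, 10.78 and 11.37 (SD 2.53, range 4.64). It encodes a secreted protein that salivary glands are known to make. The other 8 Eig71E genes were flat, between 3.69 and 4.45. Some genes of unknown function had the same order. *CG7606*, a close neighbour of *Sgs5* and *Sgs5bis* on 3R, gave 6.91, 10.12 and 10.70, and the neighbours *CG31698* (6.69, 9.59 and 9.89) and *CG15404* (6.36, 8.90 and 9.23) on 2L were low on replicate 1 as well. In all, 17 of the 70 variable genes with a known position lay within 3 genes of another in 7 runs. Several of those runs are families that share sequence, so their probe sets are not independent. On the mutant arrays the spread of the 6 glue genes with the shape of *Sgs3* was as large, with SDs from 1.74 (*Sgs5*) to 2.55 (*Sgs5bis*).

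Fat body genes ran the other way. *Fbp1*, the receptor that takes up storage proteins, gave 9.70, 7.12 and 5.90. *Fbp2* gave 8.99, 6.61 and 5.69, *Lsp2*, a larval serum storage protein, gave 11.17, 9.11 and 7.90, and *apolpp*, the carrier of blood lipids, gave 8.31, 6.29 and 5.71. All 4 were highest on replicate 1 and lowest on replicate 3, the reverse of the glue genes. The remaining genes of the list were even, with *Obp99a*, also an odorant-binding protein gene, at 12.50, 12.37 and 11.94, *Tsf1*, a transferrin, at 11.63, 11.68 and 11.28, and the yolk protein genes *Yp1* and *Yp3* low at means of 4.05 and 4.74. *CG34166* (9.23, 6.84 and 5.05) had the same order as *Fbp1*. *FASN3*, a fatty acid synthase gene (6.66, 4.32 and 4.17), and *Lectin-galC1* (6.47, 4.10 and 4.17) were high on replicate 1 alone and lay in the low group on the other arrays, and both names were added after values were seen.

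Blood cell genes varied less and in another order. Of 16 hemocyte genes 11 were highest on replicate 1 and 11 were lowest on replicate 2. Counts of this kind, here and for the lists below, were not made over all genes, so they only describe the list. An SD of at least 0.5 was found in 6 hemocyte genes (37.5%, against 4.72% of all genes). *PPO1*, a prophenoloxidase of crystal cells, gave 8.47, 7.20 and 7.48, and *PPO2* gave 9.51, 8.47 and 9.22. *Hml*, a hemocyte clotting protein, gave 8.15, 7.37 and 7.82. *eater*, a phagocytosis receptor, gave 6.64, 5.45 and 5.91, and the GATA factor gene *srp* gave 6.46, 5.73 and 6.85. Replicate 2 had the lowest level of these 5 genes, and replicate 1 the highest in all but *srp*.

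Replicate 2 was the high array for the largest group of the 71 genes. *CG12506* gave 5.07, 9.22 and 4.77 (SD 2.49), and its neighbour *CG13946* gave 7.0, 10.04 and 6.95. The neighbours *CG14852* (7.95, 11.86 and 9.44) and *CG8087* (8.60, 11.85 and 9.22) had the same high array. *CG14419* (7.0, 9.02 and 5.32), *CG13285* (5.90, 8.35 and 5.03), *CG7203* (9.36, 11.33 and 8.0) and *CG12715* (3.92, 7.16 and 5.13) completed the high genes of replicate 2 among the 25 with the largest SD. The mucin gene *Muc68Ca* gave 9.96, 12.13 and 10.65, and a second probe set of it gave 9.43, 11.71 and 10.38. The cuticle gene *Cpr100A* gave 7.56, 10.01 and 7.40, *Cpr31A* gave 5.92, 8.15 and 5.86, and *Cpr49Ag* gave 5.22, 7.25 and 5.79. The cuticle list as a whole did not follow them, since 27 of its 105 genes were highest on replicate 2 and 47 were lowest there. An SD of at least 0.5 was found in 13 cuticle genes (12.4% of the 105, against 4.72% of all genes). Of these, 4 were high on replicate 2, as were 0.459% of all genes. The cuticle gene with the largest SD, *Cpr47Eb*, was high on replicate 1 (10.70, 8.05 and 8.25).

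Of 21 antimicrobial peptide genes 6 (28.6%, against 4.72% of all genes) had an SD of at least 0.5, and in 5 of the 6 replicate 2 was the high array, as in 0.459% of all genes. *AttD*, an attacin, gave 5.12, 7.59 and 4.85, *Def*, the defensin, gave 5.89, 7.51 and 5.94, and *DptB*, a diptericin, gave 4.70, 6.19 and 5.20. *IM33* (5.03, 6.48 and 4.81) and *BomT3* (4.74, 5.81 and 4.56) had the same shape. In the remaining gene of the 6, replicate 3 was the high array. The other genes of the list had SDs under 0.5, among them *Drs*, the drosomycin gene (4.82, 4.61 and 4.84), and *Mtk* (4.44, 4.48 and 4.26), which were low.

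Replicate 3 was low in some genes of the differentiating eye. Over the SD of 0.5, replicate 3 was the low array for 189 genes (1.58% of all genes read), or 33.5% of the 565, while it was the low array for 19.3% of all genes. The other groups at this threshold held 106 genes high on replicate 3 (0.885%), 94 high on replicate 1 (0.785%), 68 low on replicate 1 (0.568%), 55 high on replicate 2 (0.459%) and 50 low on replicate 2 (0.417%), and 3 genes had no single farthest array (0.025%). In the eye list all 5 genes with such an SD (18.5% of the 27, against 4.72% of all genes) were low on replicate 3. *dan*, a nuclear protein that acts early in eye specification, gave 9.51, 9.18 and 7.26. *so*, *gl*, *ro* (7.61, 7.47 and 6.44) and *sens* (8.68, 8.59 and 7.76), the last a zinc finger gene of the first photoreceptor, were the others. Of the 27 genes 16 were lowest on replicate 3, 11 on replicate 1 and none on replicate 2. *sev*, the receptor that recruits the last photoreceptor, gave 9.04, 9.10 and 7.50.

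Several neuronal genes had the same low array. Of 13 neuronal genes 9 were lowest on replicate 3, and 5 (38.5%, against 4.72% of all genes) had an SD of at least 0.5. *futsch*, a protein of axonal microtubules, gave 8.86, 9.10 and 7.28, *Appl*, the fly relative of the amyloid precursor, gave 10.51, 10.95 and 9.61, and *nrv3*, a sodium pump subunit, gave 9.16, 9.49 and 8.39. *tau*, named after its values were seen, gave 8.0, 7.85 and 5.99. But *elav* (10.25, 10.83 and 10.54) and *Nrg* were not low on replicate 3. *brp*, of the synaptic active zone, was low on replicate 1 instead, with 6.69, 7.84 and 7.68. *Jhbp14*, in a family of juvenile hormone binding proteins, also had replicate 3 as the low array (10.01, 10.43 and 7.02). The family as a whole, looked at after values were seen, did not follow it. Of its 12 genes 8 were highest on replicate 3, among them *Jhbp2* (10.86, 10.23 and 12.02), and 4 were lowest there. Others with replicate 3 as the low array were *Mmp2*, a matrix metalloproteinase (10.14, 9.55 and 7.41), and *ATPsynbeta*, the catalytic subunit of ATP synthase (13.12, 12.34 and 11.38). *ATPsynbeta* was the variable member of a list with a median SD of 0.11. The second probe set of *Mmp2* was flat, with 4.35, 4.27 and 4.31. That of *ATPsynbeta*, also bright, gave 11.93, 11.74 and 11.57 (SD 0.18), a much smaller spread.

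Odorant-binding proteins, small secreted carriers that many tissues make, included several variable genes. Of 47 genes 14 (29.8%, against 4.72% of all genes) had an SD of at least 0.5 and 3 an SD of at least 1, which 0.593% of all genes had. *Obp99b* gave 10.24, 8.46 and 6.50, *Obp28a* gave 9.67, 9.71 and 6.92, and *Obp56e* gave 10.24, 11.32 and 8.46. *Obp56d* (13.05, 12.89 and 11.82) and *Obp56a* (13.07, 12.60 and 11.74) were the brightest of the family and also lowest on replicate 3. The 3 genes of the Obp58 group had another shape, lowest on replicate 2: *Obp58b* gave 6.12, 4.87 and 5.80, *Obp58c* gave 9.27, 8.02 and 9.24, and *Obp58d* gave 8.15, 6.79 and 7.95. These groups were looked at after values were seen.

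A few digestive genes were high on replicate 3. Of the 35 genes of the list 5 had an SD of at least 0.5 (4.72% of all genes did), replicate 3 was the high array in 4 of them, and the median deviation of the list on replicate 3 was 0.05. *Jon65Aiv*, a serine protease of the gut, gave 4.59, 4.59 and 7.80, *Jon65Aiii* gave 5.37, 5.12 and 7.74, and *Jon74E* gave 5.17, 5.21 and 7.82. On replicates 1 and 2 these genes lay close to the receptor bound, and on replicate 3 they lay well over it. The other gut markers were lowest on replicate 3, with *Mal-A1*, a maltase, at 7.10, 5.74 and 5.35 and *Try29F* at 5.24, 5.10 and 4.94. Of the 35 genes 28.6% were over the receptor bound on all arrays, against 63.3% of all genes. On the mutant arrays the SD was 0.09 for *Jon65Aiv* and 0.09 for *Jon74E*.

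Of the 21 genes in the ecdysone list 13 were highest on replicate 3 and 2 were lowest there, without a count over all genes to compare. The list does not hold response genes alone, since *dib* (5.85, 5.81 and 6.04), a gene of hormone synthesis, is in it. *Hr4*, a nuclear receptor that ecdysone induces, gave 7.73, 7.48 and 9.24, *Hr3* gave 7.07, 6.89 and 8.29, and *ImpE1* gave 11, 11.37 and 12.24. *ftz-f1*, which acts as the hormone falls, was the exception, with 7.69, 8.09 and 6.97. Genes that make hormones in the ring gland, put together after values were seen, were mostly read at a low to moderate level. Of these 8 genes 6 were highest on replicate 3, among them *spo* (3.86, 3.87 and 4.31), which was under the receptor bound. *dib* is among these 8 too, so the 2 counts overlap. *sad* gave 8.43, 7.76 and 9.14 and *phtm* gave 8.04, 7.62 and 8.89, both for enzymes of ecdysone synthesis. *jhamt*, an enzyme of juvenile hormone synthesis, gave 5.45, 5.21 and 7.39, and *Akh*, a peptide of the corpora cardiaca, gave 6.71, 6.72 and 7.87. *spok* (8.81, 6.98 and 8.17) and *nvd* (5.33, 4.27 and 4.32) were highest on replicate 1.

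**Figure D5:**
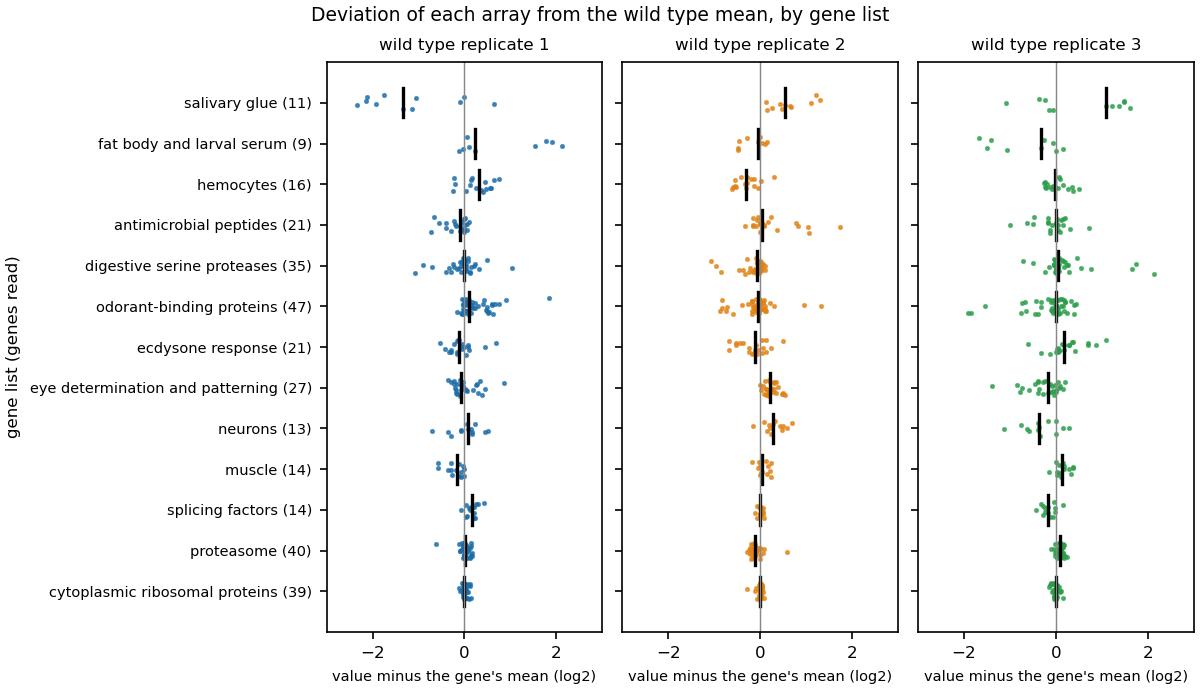
Each point is a gene of the list on the y axis (number of genes read), placed at its value on 1 array minus its mean over the 3 wild type arrays (x axis, log2), with 1 panel per array and the list's median as a black bar. Glue genes lie to the left on replicate 1 (median -1.35) and to the right on replicate 3 (1.08), some fat body genes lie in the opposite direction, and ribosomal protein genes stay at 0 on all 3.

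Smaller shifts ran through whole lists. The 14 splicing factors were highest on replicate 1 in 13 and lowest on replicate 3 in 12, with a median deviation of 0.16 on replicate 1 and -0.18 on replicate 3. *U2af38*, which helps to recognize splice sites, gave 9.91, 9.50 and 9.07. The 40 proteasome genes were lowest on replicate 2 in 33 and highest on replicate 3 in 27, but by 0.12 and 0.10 in the median. The 14 muscle genes were lowest on replicate 1 in 12 and highest on replicate 3 in 9. *Msp300*, a giant nuclear anchor (11.99, 12.82 and 12.91), and *bt*, a titin relative (11.36, 12.15 and 12.30), had the widest range. Of the 8 glial genes 7 were highest on replicate 3, by 0.17 in the median. Genes of 1 list share pathways and arrays, so these counts are a description of 3 arrays. The median over all genes read also fell, from 7.32 on replicate 1 to 7.27 on replicate 2 and 7.15 on replicate 3. How many of all genes were highest or lowest on each array was not counted. Such counts for lists, here and above, therefore have no share over all genes beside them and may partly hold this offset.

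On chromosome 4, 12 of 65 genes (18.5%) had an SD of at least 0.5, against 3.81% to 5.23% on the X and the large autosomal arms. The 12 did not share an array, since replicate 3 was low in 6, replicate 1 high in 3, replicate 3 high in 2 and replicate 1 low in 1. *apolpp*, *bt* and *ATPsynbeta* were among them.

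The spiked controls also differed between the arrays. The transcripts of *dap*, *lys*, *phe* and *thr*, bacterial RNAs that are added to a sample before labeling, averaged 7.68, 7.86 and 8.45 on replicates 1, 2 and 3 over 12 probe sets, so replicate 3 was 0.76 above replicate 1. The hybridization controls *bioB*, *bioC*, *bioD* and *cre* were also highest on replicate 3 and lowest on replicate 1, with a difference of 0.185 to 0.52. The ratio of 3 prime to 5 prime signal of the spikes differed by no more than 0.33 between replicates 1 and 3. Their part in the differences between arrays was not tested.

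Where a gene had more than 1 probe set, the others gave a partial check. Of 1094 such genes the second probe set had the same farthest array on the same side in 275 (25.1%). Among the 75 with an SD of at least 0.5 this was so in 34 (45.3%), and among 55 whose second probe set was itself over the receptor bound in 24 (43.6%). The median gap in signal between the probe sets of a gene was 1.10. In 144 genes with a mean over the median of all genes the second probe set was under the receptor bound, so the signal of a gene depended on which of its probe sets was read.

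The spread on the mutant arrays, which had no part in choosing the genes, followed some of these groups. Of the 71 wild type genes with an SD of at least 1, 26 (36.6%) also reached it on the mutant arrays, against 0.259% of all genes. These 26 made up 83.9% of the 31 genes that did so there. By group it was 11 of 13 for genes low on replicate 1 (median mutant SD 1.84) and 5 of 8 for genes high on replicate 1 (1.5). It was 8 of 22 for genes high on replicate 2 (0.88) and 0 of 2 for genes low on replicate 2 (0.38). It was 2 of 16 for genes low on replicate 3 (0.34) and 0 of 10 for genes high on replicate 3 (0.20). The median mutant SD over all genes was 0.09. Among the genes low on replicate 3, *Obp99b* (mutant SD 2.09) and *Obp28a* (1.29) were the 2 that reached an SD of 1.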

How the data were processed

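Total RNA from eye discs of wandering larvae was labeled and hybridized to Affymetrix Drosophila arrays, and the genotype and replicate of each array were read from its GEO title. The authors deposited log2 expression values with 2 decimals, made by the rma algorithm of the affy package over all 6 arrays, which subtracts background, quantile-normalizes the arrays and combines the probes of each probe set. This compresses dim signals and ties the brightest values between arrays. The files hold no counts, so no depth applies, and the number of arrays limits the precision.

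From the log2 values of the 3 wild type arrays the mean, SD, range and farthest array of each gene were computed with pandas 2.3.3 and numpy 2.4.6 in Python 3.11.15, and the figures with matplotlib 3.10.9. The platform annotation named 1 gene for 13647 probe sets and several for 402, which were not used, and 4720 are unnamed here. Symbols were updated by Entrez ID, for 13544 probe sets, through the RefSeq gene table, whose gene order served only to find neighbours. The probe set with the highest mean stood for a gene. The code was checked on simulated arrays.

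The genes named are the 25 brightest, the 25 with the largest SD, up to 4 brightest, 2 dimmest and 2 most variable of each of 39 gene lists, and the 15 most even genes above the median. Others, apart from thresholds and markers, were chosen after their values were seen. The arrays and lists were chosen with earlier results of these data known, some lists were corrected after values were seen, and genes can be in more than 1 list. The alternatives were 2 other background bounds, 2 other normalizations, 2 other ways to choose among the probe sets of a gene, shared probe sets left out, a filter on dim genes, and each array left out. A planned count of promoter motifs was not run, since no sequence was used here.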

Additional observations from a re-analysis of the deposited data

How the results depend on the processing

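The number of genes near background depended on the bound. It was 212 with the *trp* bound, 1688 with the first quartile of each array and 3886 with the receptor bound. Under the 2 other normalizations, the mean or the dimmest probe set of each gene, and without shared probe sets it stayed between 201 and 287, and leaving out 1 wild type array in turn gave 162 to 294. The number of genes with an SD of at least 1 was 71, between 62 and 74 under the other settings, and 67 to 97 with 1 array left out, where an SD has 1 degree of freedom. Ribosomal protein genes made up 25.8% of the 120 brightest genes, 22.5% with the mean or the dimmest probe set of each gene, and 25.8% with any array left out. The share was 11.7% once probe sets that can share probes between transcripts or genes were left out. The ribosomal list then held 25 genes in place of 39, 10075 genes were read, and 52 of the 120 were shared with the main set. Among gene list medians, 34 of 195 levels and 2 of 195 SDs moved under the other settings, and 3 of 117 levels and 26 of 117 SDs moved with 1 array left out. No paired analysis was possible because the values come from 1 genotype and no test. The planned promoter motif count was not run. Values under about 5 do not show how low a transcript is, and differences between probe sets do not measure differences between transcripts.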
